A study of Mus musculus with 4 samples.

Results

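Hepatocytes store triglyceride in lipid droplets, each a core of neutral lipid under a single layer of phospholipid and coat proteins. Perilipins cover the droplet and limit the access of lipases. CIDE proteins enlarge droplets by moving lipid between them or help to load lipid onto very low density lipoprotein (VLDL). Patatin-like lipases such as adipose triglyceride lipase release fatty acids, and liver droplets grow during fasting and in fatty liver.

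The values here are RNA levels of 10 such genes, taken by symbol from the 35522 genes in each table: the perilipins Plin2, Plin3, Plin4 and Plin5, the CIDE genes Cidea, Cideb and Cidec, the lipase genes Pnpla2 and Pnpla3, and the lipase inhibitor gene G0s2. RNA sequencing was done on mouse liver of 2 groups, labelled Dph1 KO (2 libraries) and Control (2 libraries). All 4 libraries share the strain C57BL/6 and a treatment with diethylnitrosamine (DEN), a liver carcinogen that P450 enzymes turn into a DNA-alkylating agent, and their titles place them 1 day after it. Dph1 encodes a subunit of the complex that begins to build diphthamide on a histidine of elongation factor eEF2. The sources used here do not give the allele, the cells in which Dph1 was removed, or the age and sex of the mice. No liver free of DEN was analysed here, and a response to DEN and a lasting genotype difference cannot be told apart. Whether each library is a separate mouse is not stated in the labels, so p-values reflect the spread among 2 libraries per genotype, which could be technical.

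Gene reads numbered 20410978 and 21137358 in the Dph1 KO libraries, against 19474596 and 20355790 in the Control libraries. Dph1 itself (gene ID 116905), where 54.2% of reads over the 4 libraries matched 1 place, was at 17.8 and 31.5 CPM in Dph1 KO and at 70.2 and 68.2 CPM in Control, with a log2 fold change of -1.49 (SE 0.26, edgeR adjusted p = 0.0107). CPM are reads relative to a library size scaled by TMM. Of 8 hepatocyte markers, 0 were called by edgeR (0 at an unadjusted p under 0.05), with a median log2 fold change of -0.06. Their summed level, which has no TMM factor, was 63168 to 73044 TPM in Dph1 KO and 53716 to 55852 TPM in Control. TPM set reads against exon length and share out a fixed total in each library. Of 13303 genes tested, edgeR's quasi-likelihood test called 12.3% at a Benjamini-Hochberg adjusted p under 0.05, with 4.86% higher and 7.47% lower in Dph1 KO. Among markers of other liver cells that also hold droplets, 1 of 8 stellate cell markers rose and 2 fell (summed 78.2 to 112.9 TPM in Dph1 KO, 69.1 to 70.9 TPM in Control), and 1 of 8 macrophage markers fell (206.6 to 261.6 TPM in Dph1 KO, 254.7 to 277.2 TPM in Control). Of 3 lymphocyte markers 1 fell, and edgeR called 0 of 8 endothelial, 0 of 5 bile duct and 0 of 2 neutrophil markers (1, 2 and 0 lower at an unadjusted p under 0.05). The part of these cells in the values of the droplet genes was not tested. Here "rose" and "fell" are used only for genes past that threshold.

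Cidec and Pnpla2 fell in the Dph1 KO livers, and none of the 10 genes rose. Cidec, which drives the growth of large droplets, was at 23.9% of its Control mean, and Pnpla2, which encodes adipose triglyceride lipase, was at 49.3%. Plin2 and Cideb were the most abundant of the 10 genes per length. In CPM, both lay lower in each Dph1 KO library than in either Control library, without passing the threshold. In TPM, both overlapped between the genotypes. Cideb was at 511.3 and 568.4 TPM in Dph1 KO and at 548.5 and 733.2 TPM in Control. The CPM of Plin3, Plin4, Plin5 and Pnpla3 in Dph1 KO overlapped those of Control. Of the 9 genes that passed the filter on low counts, 2 fell (22.2%), beside 7.47% of all tested genes, and 7 were not called. At an unadjusted p under 0.05, 4 of the 9 were lower and 0 higher, beside 17.9% and 16.3% of all tested genes. DESeq2 called 3 of the 9 lower and 0 higher, where it called 15.1% of all, 10.3% lower and 4.77% higher. With a library left out, edgeR called 3 of the 9 lower without Control replicate 1 (4.13% of all), 1 without Control replicate 2 (2.5% of all), 2 without Dph1 KO replicate 1 (5.57% of all) and 5 without Dph1 KO replicate 2 (20.4% of all). The CPM of 5 of the 9 (Cideb, Cidec, Plin2, Pnpla2 and G0s2) did not overlap between the genotypes, all 5 lower in Dph1 KO. Of all tested genes, 67.4% had no overlap in CPM, 34.9% higher and 32.5% lower. In TPM, Cidec and Pnpla2 stayed apart and lower in Dph1 KO, while Cideb, Plin2 and G0s2 overlapped. Plin3 and Pnpla3 were higher in both Dph1 KO libraries in TPM. The share of all genes without overlap in TPM was not counted. The median log2 fold change of the 9 was -0.63, and that of all tested genes was 0.041. In whole liver, fewer cells of a type and less RNA per cell cannot be told apart.

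**Figure D1:**
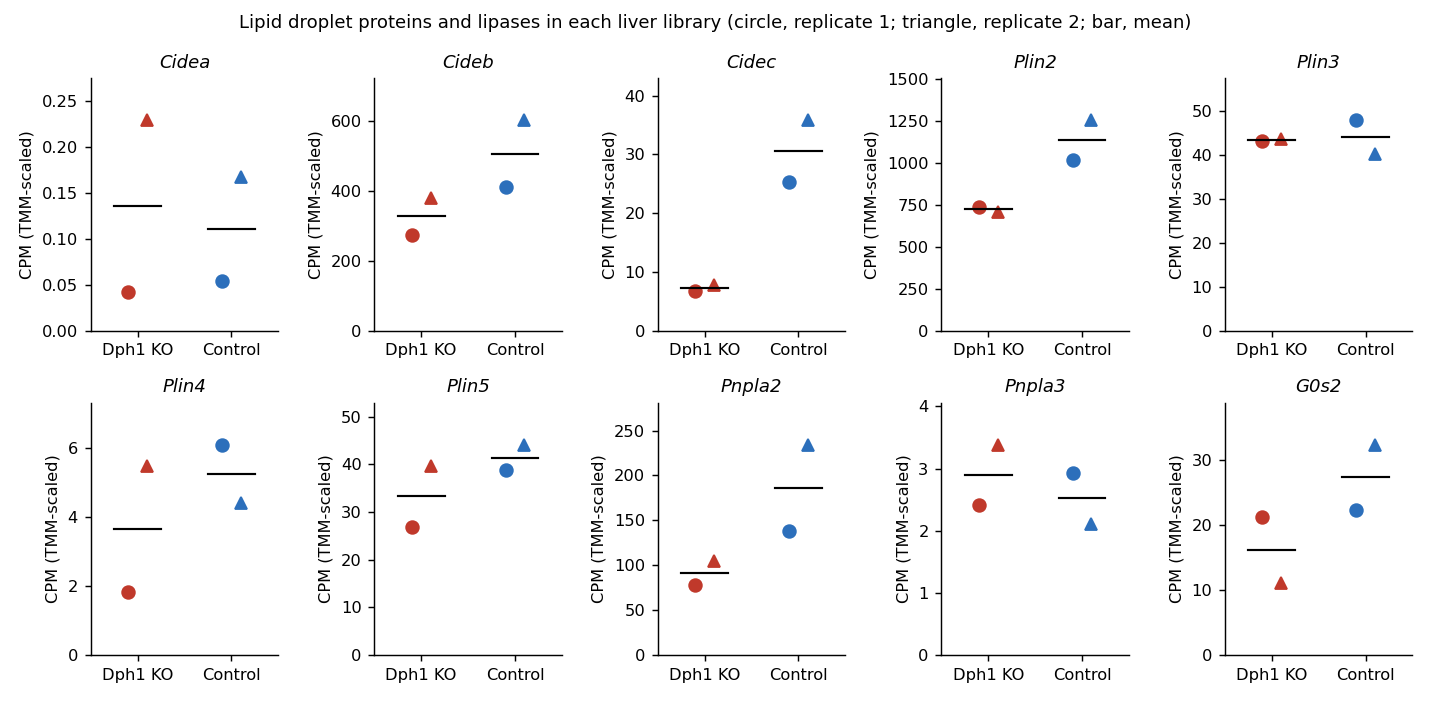
TMM-scaled CPM (vertical axis, from 0 in each panel) of each of the 10 genes in Dph1 KO and Control livers, with circles for replicate 1, triangles for replicate 2 and a bar at the mean of 2 libraries. The Cidec points of Dph1 KO, 6.82 and 7.82 CPM, lie well below those of Control, 25.4 and 35.8 CPM, while the Plin3 points of the genotypes overlap.

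The fold changes of the whole transcriptome followed the GC content of the transcripts, and most droplet genes are GC-rich. Over 12495 protein-coding genes in 5 equal classes of GC content, the median log2 fold change ran through 0.48, 0.29, 0.066, -0.24 and -0.56, from the AT-rich to the GC-rich class. Cidec, Pnpla2, G0s2, Plin4, Plin5 and Pnpla3 are in the most GC-rich class, Cideb and Plin2 in the next and Plin3 in the middle one. The class medians are therefore the values beside which each of these fold changes stands, and the part of this trend in them was not tested beyond a refit. In that refit, a smooth trend of GC content and exon length was removed from each library. Cidec was then the 1 gene of the 9 called, lower in Dph1 KO, where that fit called 10.1% of all genes, 4.6% higher and 5.52% lower.

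**Figure D2:**
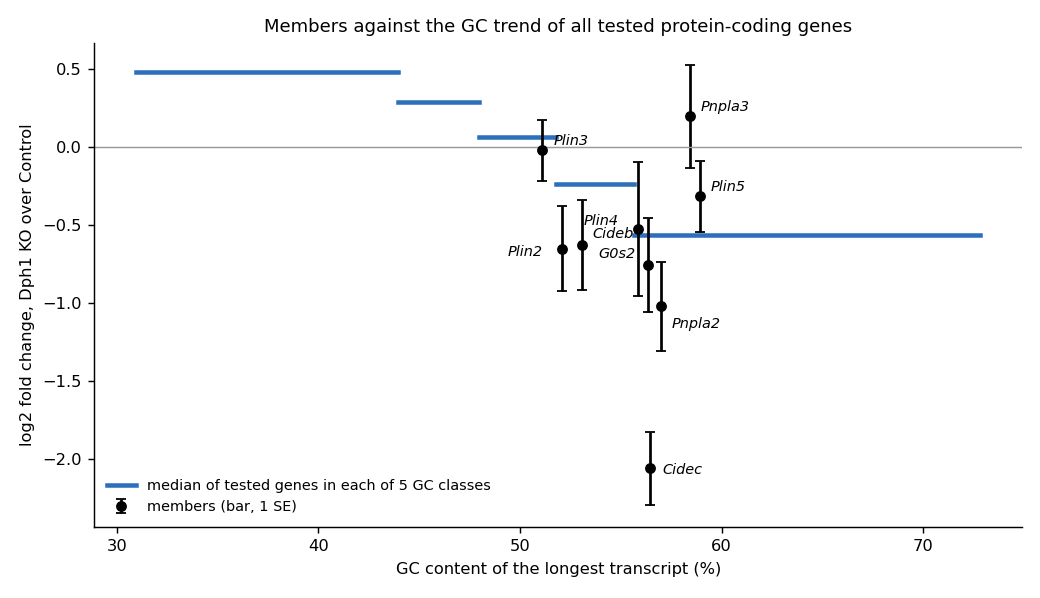
Log2 fold change of Dph1 KO over Control (vertical axis, bar of 1 SE) of the 9 tested genes against the GC content of the longest transcript in percent (horizontal axis), with blue lines at the median of all tested protein-coding genes in each of 5 GC classes. Cidec, at -2.06 and a GC content of 56.5%, lies far below its class median of -0.56, while Plin5 at -0.32 and Pnpla3 at 0.20 lie above it.

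Most perilipin RNA, per exon length, was Plin2. Plin2 (gene ID 11520, GRCm38 chr4:86656565-86670059, minus strand) encodes the main coat protein of hepatocyte droplets, a protein that is degraded when it is not bound to a droplet. Per exon length, Plin2 was at 849.5 and 661.2 TPM in Dph1 KO and at 847.3 and 947.8 TPM in Control. That was 92.4% and 90.6% of the summed perilipin TPM in the Dph1 KO libraries and 93.0% and 94.3% in the Control libraries. The 4 perilipins summed to 919 and 729 TPM in Dph1 KO and to 911 and 1005 TPM in Control, so the sums overlapped.

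On the TMM-scaled level, Plin2 was at 738.4 and 708.8 CPM in Dph1 KO, against 1019.5 and 1254.5 CPM in Control. The Dph1 KO libraries lay close together and below both Control libraries. The means were 723.6 ± 20.9 CPM in Dph1 KO and 1137 ± 166 CPM in Control (SD, n = 2 each), a log2 fold change of -0.65 (SE 0.27) that edgeR did not call (adjusted p = 0.118). DESeq2 called it (adjusted p = 0.0221). TPM carry no TMM factor and share out a total that depends on exon lengths. Leaving that factor out moves the median log2 fold change of all genes by 0.26. With no scaling beyond the library total, Plin2 was still lower in Dph1 KO, at a log2 fold change of -0.38. On the TPM scale the genotypes overlapped for Plin2, and which step of the scaling gave this overlap was not tested. The GC and length refit gave -0.46 (edgeR adjusted p = 0.152).

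Plin3 and Plin5 were the next perilipins per length. Plin3 (gene ID 66905, chr17:56278962-56290511), a coat protein that moves from the cytosol onto small new droplets, was at 43.2 and 43.7 CPM in Dph1 KO and at 47.9 and 40.2 CPM in Control. Both Dph1 KO libraries lay between the Control libraries. The log2 fold change was -0.02 (SE 0.20, edgeR adjusted p = 0.951), and its sign turned with the scaling, to 0.24 with no scaling and 0.053 with upper quartile scaling. Its share of the perilipin TPM was 4.44% and 4.62% in Dph1 KO and 3.68% and 2.60% in Control.

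Plin5 (gene ID 66968, chr17:56111601-56117548) encodes a perilipin of oxidative tissues that tethers droplets to mitochondria and binds adipose triglyceride lipase and its co-activator. It was at 26.8 and 39.7 CPM in Dph1 KO and at 38.7 and 44.1 CPM in Control. Dph1 KO replicate 2 lay between the Control libraries, and the log2 fold change of -0.32 (SE 0.23) was not called (edgeR adjusted p = 0.335). It was called without that replicate, at -0.61 (edgeR adjusted p = 0.0171), and it had the other sign in the GC and length refit, at 0.29.

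Plin4 (gene ID 57435, chr17:56100591-56109802), a coat protein best known from fat and muscle, lies 1798 bases from Plin5 on the same strand. It was low, at 1.82 and 5.48 CPM in Dph1 KO and 6.09 and 4.39 CPM in Control. Here the Dph1 KO libraries themselves stood apart, with replicate 1 below both Control libraries and replicate 2 between them. The log2 fold change was -0.53 (SE 0.43, edgeR adjusted p = 0.399), -1.51 without Dph1 KO replicate 2 (edgeR adjusted p = 0.00834) and 0.088 without Dph1 KO replicate 1. The neighbouring gene Hdgfrp2 overlaps the end of Plin4, and reads there may belong to either gene.

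**Figure D3:**
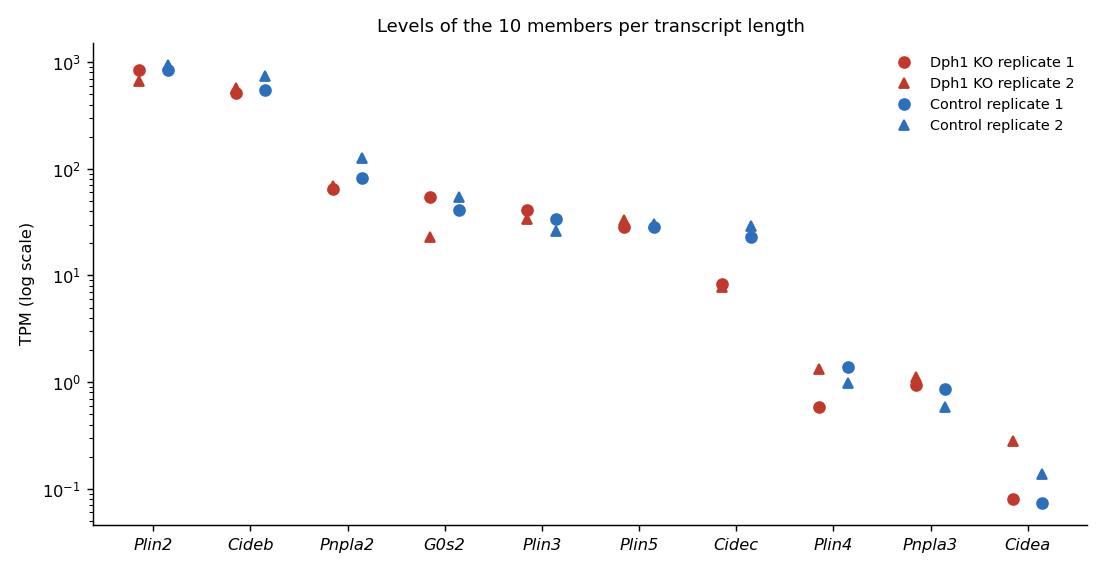
Deposited TPM (log scale, vertical axis) of the 10 genes in each library, ordered by their mean, with Dph1 KO to the left of Control and circles and triangles for replicates 1 and 2. Plin2 and Cideb lead at 511 to 948 TPM over the 4 libraries, and Cidea is lowest, at 0.07 to 0.28 TPM.

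Cidec (also known as Fsp27; gene ID 14311, chr6:113424636-113435755, minus strand) sits where droplets touch and lets lipid pass from the smaller to the larger one. It is a fat cell gene that becomes abundant in fatty mouse liver, where PPARG and CREBH are known to raise its transcription. RefSeq lists 2 starts of Cidec. The 250 bases before each are shown because Cidec had the largest change of the 10 genes, with those of Pnpla2, the other gene that fell, and of Plin2, the most abundant of the 10 per length, for comparison. They come from the RefSeq promoter table for GRCm38.p6 and read 5′ to 3′ on the strand of the gene. Capitals mark matches, on either strand, to any of 6 motifs: the direct repeat bound by PPAR with RXR (AGGTCA, any 1 base, and the same 6 bases again), its 6-base part AGGTCA on its own, the E-box CACGTG, the promoter box CCAAT, the TATA box TATAAA and the GC box GGGCGG.
Cidec upstream start, chr6:113435761-113436010, minus strand: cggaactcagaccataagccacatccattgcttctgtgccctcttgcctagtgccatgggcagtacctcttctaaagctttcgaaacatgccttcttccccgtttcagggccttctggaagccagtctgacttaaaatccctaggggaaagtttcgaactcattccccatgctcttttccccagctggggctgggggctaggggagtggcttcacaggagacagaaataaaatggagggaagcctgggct
Cidec downstream start, chr6:113434765-113435014, minus strand: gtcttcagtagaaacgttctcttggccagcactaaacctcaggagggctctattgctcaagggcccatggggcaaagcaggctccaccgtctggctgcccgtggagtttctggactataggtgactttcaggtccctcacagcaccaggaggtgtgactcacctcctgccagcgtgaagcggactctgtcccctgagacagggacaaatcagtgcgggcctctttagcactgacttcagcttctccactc
Pnpla2, chr7:141454938-141455187, plus strand: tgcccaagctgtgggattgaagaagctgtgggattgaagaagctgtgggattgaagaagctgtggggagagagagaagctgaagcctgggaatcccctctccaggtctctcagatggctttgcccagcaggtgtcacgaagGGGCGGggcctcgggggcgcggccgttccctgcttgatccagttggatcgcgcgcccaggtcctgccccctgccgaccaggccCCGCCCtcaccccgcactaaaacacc
Plin2, chr4:86670060-86670309, minus strand: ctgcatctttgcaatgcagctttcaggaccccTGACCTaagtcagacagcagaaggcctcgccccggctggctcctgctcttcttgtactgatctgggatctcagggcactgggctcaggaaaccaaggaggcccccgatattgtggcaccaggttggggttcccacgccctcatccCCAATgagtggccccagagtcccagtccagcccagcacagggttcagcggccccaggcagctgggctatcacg
Neither Cidec window held any of the 6 motifs. Pnpla2 held GGGCGG 109 and, reversed, 26 bases before its start. Plin2 held AGGTCA, reversed, 218 bases before its start and CCAAT at 73 bases. Of all 32851 windows of this length, GGGCGG was in 32.7%, CCAAT in 33.8%, AGGTCA in 14.0%, TATAAA in 12.4%, CACGTG in 6.02% and the direct repeat in 0.0335%. The 11 windows of 9 of the genes held no direct repeat and no E-box, 7 held GGGCGG, 5 held CCAAT and 2 held AGGTCA (Plin2 and Plin5, AGGTCA being part of the direct repeat). These are letter matches in short windows, and they say nothing about a factor at sites elsewhere.

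Cidec was at 6.82 and 7.82 CPM in Dph1 KO, against 25.4 and 35.8 CPM in Control. Both Dph1 KO libraries were low and alike, and both Control libraries stood far above them. The means were 7.32 ± 0.705 CPM in Dph1 KO and 30.6 ± 7.36 CPM in Control (SD, n = 2 each), a level 4.18-fold lower. The log2 fold change was -2.06 (SE 0.23, edgeR adjusted p = 0.000773). It was -1.56 (SE 0.19, edgeR adjusted p = 0.00194) in the GC and length refit. With any 1 library left out it lay between -2.30 and -1.80, and edgeR called it each time.

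The reads behind Cidec were 161 and 171 in Dph1 KO and 467 and 644 in Control. Most lay in exons, at 152 and 163 reads in Dph1 KO and 457 and 617 in Control. Reads across exon junctions numbered 32 and 38 in Dph1 KO and 102 and 136 in Control. Scaled as CPM, exon reads in Dph1 KO were at 23.5% of Control. Junction reads, which are counted among the exon reads, were at 23.6%, so these ratios are not independent. Intron reads were few, at 9 and 8 in Dph1 KO and 10 and 27 in Control.

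Cidec is also a fat cell gene, and 6 of the 8 fat cell markers were too low to be tested. Adipoq, a hormone gene of fat cells, had 1 and 0 reads in Dph1 KO and 0 and 11 in Control. Cfd, an adipocyte serine protease, had 0 and 1 reads in Dph1 KO and 1 and 78 in Control. Plin1, the perilipin of fat cells, had 0.042 and 0.091 CPM in Dph1 KO and 0.16 and 0.67 CPM in Control. Control replicate 2 thus held more of these reads than the other 3 libraries. Without it, the Cidec log2 fold change was -1.80 (edgeR adjusted p = 1.87e-05). Over all 8 fat cell markers the summed level was 21.0 to 23.4 TPM in Dph1 KO and 20.7 to 30.5 TPM in Control, Lep and Ucp1 were at 0 in all 4 libraries, and edgeR called 0 of the 2 that could be tested (0 at an unadjusted p under 0.05). Those 2 were Fabp4, a fatty acid carrier gene, with 33 and 48 reads in Dph1 KO and 23 and 44 in Control, and Lipe, the gene of hormone-sensitive lipase, with 656 and 764 reads in Dph1 KO and 701 and 739 in Control. Lipe made up most of the summed level, at 17.0 and 17.97 TPM in Dph1 KO and 17.7 and 17.5 TPM in Control.

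The other CIDE genes differed in level from Cidec and from each other. Cideb (gene ID 12684, chr14:55754052-55758424), the liver CIDE gene, whose protein acts in VLDL loading, was at 274.6 and 379.4 CPM in Dph1 KO and at 410.9 and 601.1 CPM in Control. Both Dph1 KO libraries lay below both Control libraries, though the gap was smaller than the difference between the Control libraries. The log2 fold change was -0.63 (SE 0.29, edgeR adjusted p = 0.152), and -0.33 in the GC and length refit. It was called in 1 of the 4 fits with a library left out, without Dph1 KO replicate 2, at -0.86 (edgeR adjusted p = 0.0212). The gene 2610027L16Rik overlaps Cideb, and reads in the overlap may belong to either.

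Cideb made up 98.4% and 98.6% of the summed CIDE TPM in Dph1 KO and 96.0% and 96.2% in Control. Cidec made up 1.61% and 1.34% in Dph1 KO and 4.02% and 3.80% in Control. Cidec thus had a smaller share of the family in both Dph1 KO libraries. The exact permutation test of 2 against 2 libraries cannot give a p below 0.33. Cidea (gene ID 12683, chr18:67343564-67367794), the CIDE gene of brown fat that also appears in fatty mouse liver, had 1 and 5 reads in Dph1 KO and 1 and 3 in Control. It was too low to be tested, and a difference was not detectable at this depth.

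Pnpla2 (gene ID 66853, chr7:141455188-141460743, plus strand) encodes the lipase that cuts the first fatty acid from triglyceride. It was at 78.4 and 104.9 CPM in Dph1 KO, against 138.0 and 234.2 CPM in Control. Both Dph1 KO libraries were lower than both Control libraries, and Control replicate 2 stood well above replicate 1. The means were 91.7 ± 18.7 CPM in Dph1 KO and 186.1 ± 68.0 CPM in Control (SD, n = 2 each). The log2 fold change was -1.02 (SE 0.29, edgeR adjusted p = 0.0440; DESeq2 adjusted p = 0.00540).

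The call was lost in several other fits. Without Control replicate 2 the log2 fold change was -0.59 (edgeR adjusted p = 0.422), and without Dph1 KO replicate 1 it was -0.80 (edgeR adjusted p = 0.0605). The GC and length refit gave -0.56 (edgeR adjusted p = 0.133). Scaled as CPM, exon reads in Dph1 KO were at 49.0% and the junction reads among them at 50.5% of Control.

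Neither G0s2 nor Abhd5, which encode protein partners of this lipase, was called by edgeR with all libraries in the fit. G0s2 (gene ID 14373, chr1:193272160-193273188), whose protein binds and inhibits adipose triglyceride lipase, was at 21.2 and 11.1 CPM in Dph1 KO and at 22.3 and 32.3 CPM in Control. Dph1 KO replicate 1 lay just below Control replicate 1, so the groups barely separated. The log2 fold change was -0.76 (SE 0.30, edgeR adjusted p = 0.105), and it was -0.07 (edgeR adjusted p = 0.926) in the GC and length refit. Leaving out 1 library gave calls at -1.01 without Control replicate 1 (edgeR adjusted p = 0.0472) and at -1.27 without Dph1 KO replicate 1 (edgeR adjusted p = 0.00200).

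Per length, the level of G0s2 divided by that of Pnpla2 was 0.84 and 0.33 in Dph1 KO and 0.503 and 0.428 in Control. The Dph1 KO ratios lay on both sides of the Control ratios (two-sided exact permutation p = 1.0, where 0.33 is the smallest possible). Abhd5, which encodes the co-activator of the lipase, was at 126.2 and 129.1 CPM in Dph1 KO and at 110.5 and 109.3 CPM in Control, a log2 fold change of 0.22 that was not called (edgeR adjusted p = 0.473).

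Pnpla3 (gene ID 116939, chr15:84167816-84189521) encodes a droplet hydrolase of the same family that in humans is linked to fatty liver and in mouse liver is raised by feeding. It was at 2.41 and 3.38 CPM in Dph1 KO and at 2.93 and 2.11 CPM in Control. The groups overlapped at a low level, with a log2 fold change of 0.20 (SE 0.33, edgeR adjusted p = 0.698). It was 0.60 (edgeR adjusted p = 0.192) in the GC and length refit.

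**Figure D4:**
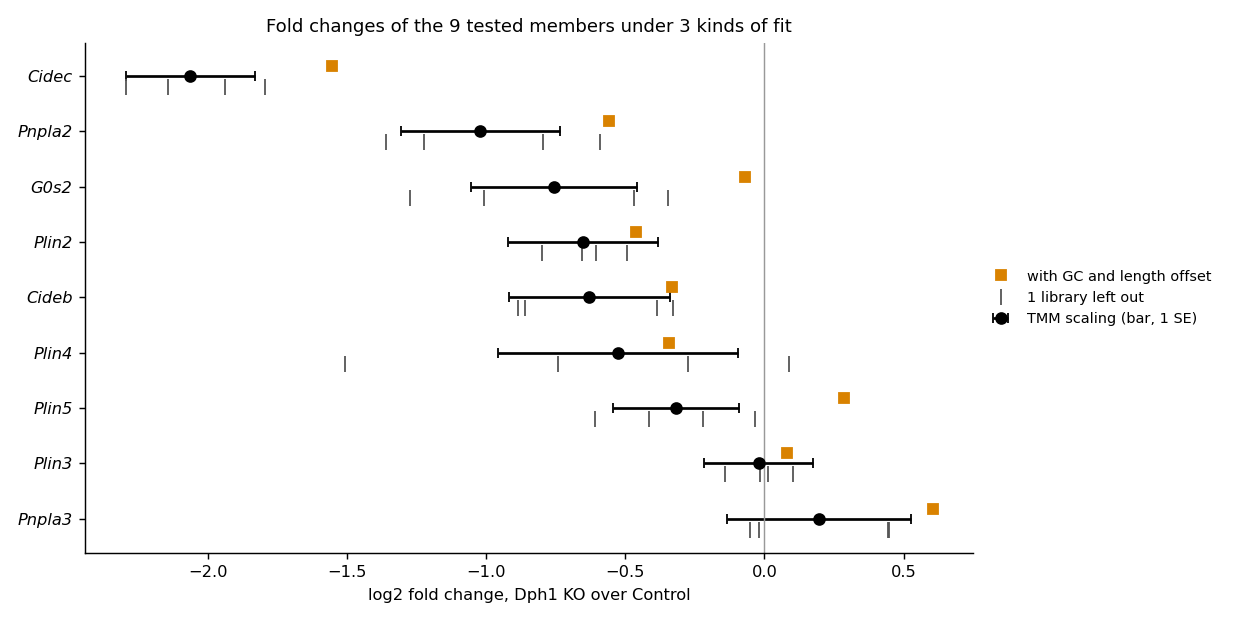
Log2 fold change of Dph1 KO over Control (horizontal axis) of the 9 tested genes. Black points with bars of 1 SE are fits with TMM scaling, orange squares add the GC and length offset, and grey ticks are the fits with 1 library left out. Cidec keeps to between -2.30 and -1.56 throughout, while the Pnpla2 values spread between -1.36 and -0.56 and the G0s2 values between -1.27 and -0.07.

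In TPM, Plin2 and Cideb led the 10 genes, followed by Pnpla2, G0s2, Plin3 and Plin5. Pnpla2 was at 64.7 and 69.5 TPM in Dph1 KO and at 81.7 and 126.9 TPM in Control. G0s2 was at 54.4 and 23.1 TPM in Dph1 KO and at 41.0 and 54.3 TPM in Control. Plin3 was at 40.8 and 33.7 TPM in Dph1 KO and at 33.5 and 26.2 TPM in Control. Plin5, at 28.2 and 33.2 TPM in Dph1 KO and 28.7 and 30.5 TPM in Control, overlapped Plin3 and G0s2, so these neighbours in the order were not separated beyond their spread. Cidec came next at 8.35 and 7.74 TPM in Dph1 KO and 23.0 and 29.0 TPM in Control. It lay below Plin5 in each of the 4 libraries, though by little in Control. Plin4 and Pnpla3 stayed between 0.58 and 1.38 TPM over the 4 libraries.

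Replicates differed too. Control replicate 2 was above Control replicate 1 in 7 of the 10 genes (55.6% of all tested genes), and Dph1 KO replicate 2 above Dph1 KO replicate 1 in 8 of the 10 (48.8% of all).

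The 3 genes whose levels over the 4 libraries were most like those of Cidec were Atp6v0e2, a subunit gene of the vacuolar proton pump, Akr1b3, an aldose reductase gene, and P2ry2, a receptor gene for extracellular nucleotides. Likeness was the root mean square difference in log2 CPM after centring each gene, and it was 0.0708 for Atp6v0e2, 0.0880 for Akr1b3 and 0.118 for P2ry2, over 8735 genes and 4 libraries.

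Of 81 tested genes in 6 other lists of droplet biology, 5 rose and 7 fell in Dph1 KO livers, 14.8% beside 12.3% of all tested genes. Their median log2 fold change was -0.16. Beside the counts by list that follow, edgeR called 4.86% of all tested genes higher and 7.47% lower in Dph1 KO. At an unadjusted p under 0.05, edgeR gave 16.3% of all higher and 17.9% lower. DESeq2 called 4.77% of all higher and 10.3% lower. Among 18 lipases, carboxylesterases and co-factors, 1 rose and 1 fell. Lipc, which encodes hepatic lipase, was at 46.2 and 39.5 CPM in Dph1 KO and at 23.3 and 24.3 CPM in Control, a log2 fold change of 0.85 (SE 0.19, edgeR adjusted p = 0.0254). Ces1g, a carboxylesterase gene of liver, was at 121.7 and 85.7 CPM in Dph1 KO and at 167.3 and 208.7 CPM in Control, a log2 fold change of -0.86 (SE 0.25, edgeR adjusted p = 0.0489). Both genes were also called in the GC and length refit, in the same directions.

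Among 15 genes of triglyceride synthesis and droplet formation, 0 rose and 1 fell by edgeR (0 higher and 4 lower at an unadjusted p under 0.05, and 0 and 3 by DESeq2). Dgat1, which makes triglyceride from diacylglycerol, was at 36.8 and 49.8 CPM in Dph1 KO and at 76.8 and 72.5 CPM in Control (log2 fold change -0.79, SE 0.22, edgeR adjusted p = 0.0432). In the GC and length refit it was -0.30 and not called (edgeR adjusted p = 0.206). That refit called 1 gene of the list higher and 0 lower: Fitm1, which encodes a protein of droplet formation and is named after its values were seen, was at 0.77 there (edgeR adjusted p = 0.0381), against 0.015 without the offset (edgeR adjusted p = 0.976). Of 8 genes of VLDL assembly, 0 rose and 1 fell by edgeR (1 higher and 2 lower at an unadjusted p under 0.05, and 1 and 1 by DESeq2). Tm6sf2, needed for lipid loading of VLDL, was at 46.9 and 58.7 CPM in Dph1 KO and at 81.6 and 98.1 CPM in Control (log2 fold change -0.77, SE 0.22, edgeR adjusted p = 0.0458), and it was not called in the GC and length refit (-0.33, edgeR adjusted p = 0.180).

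Of 14 other droplet surface proteins, 2 rose and 3 fell, 35.7% beside 12.3% of all tested genes. The GC and length refit called 21.4% of the 14, beside 10.1% of all. The 3 that fell, Sqle, Nsdhl and Lss, are enzymes of cholesterol synthesis that are also found on droplets. Sqle was at 19.4 and 15.4 CPM in Dph1 KO and at 41.8 and 26.1 CPM in Control (log2 fold change -0.97, edgeR adjusted p = 0.0359). Nsdhl had a log2 fold change of -0.76 and Lss of -0.69 (edgeR adjusted p = 0.0397 and 0.0407). The 2 that rose were Rab18 (0.76) and Vps13c (0.84), named after their values were seen, and neither was called in the GC and length refit.

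Regulators of droplet genes gave 2 rises and 0 falls among 12 genes by edgeR (2 and 0 at an unadjusted p under 0.05, and 2 and 0 by DESeq2). Insig2, which holds SREBP precursors in the endoplasmic reticulum, was at 110.2 and 100.5 CPM in Dph1 KO and at 33.04 and 40.3 CPM in Control (log2 fold change 1.52, SE 0.21, edgeR adjusted p = 0.00323). Pparg, a nuclear receptor gene of fat storage, was at 3.47 and 3.79 CPM in Dph1 KO and at 1.36 and 1.00 CPM in Control (log2 fold change 1.62, SE 0.33, edgeR adjusted p = 0.0191). Both were called in the GC and length refit, at 1.29 for Insig2 and 1.67 for Pparg, and Pparg lost its call without Control replicate 2 (edgeR adjusted p = 0.108). Among 14 genes of fatty acid uptake and PPAR targets linked to fatty liver, 0 rose and 1 fell by edgeR (1 higher and 3 lower at an unadjusted p under 0.05, and 0 and 2 by DESeq2). That gene, Vldlr, which encodes a lipoprotein receptor, was at 1.82 and 1.87 CPM in Dph1 KO and at 6.20 and 5.72 CPM in Control (log2 fold change -1.69, SE 0.28, edgeR adjusted p = 0.00786). In the GC and length refit Vldlr was at -2.28. Cidec and Vldlr were thus lower and Pparg, at a low level, higher in the same Dph1 KO livers. A link between these changes was not tested.

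Of the 12 genes called in these lists, Insig2 and Vldlr were called by edgeR in all 4 fits with a library left out. Lipc, Ces1g, Dgat1, Nsdhl, Lss, Tm6sf2, Rab18 and Vps13c lost the call when either Control library was left out, with edgeR adjusted p between 0.0966 and 0.358. Sqle lost it without Control replicate 1 (edgeR adjusted p = 0.316). Dgat1, Tm6sf2 and Vps13c also lost it without Dph1 KO replicate 1 (edgeR adjusted p = 0.0642, 0.0619 and 0.0546).

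**Figure D5:**
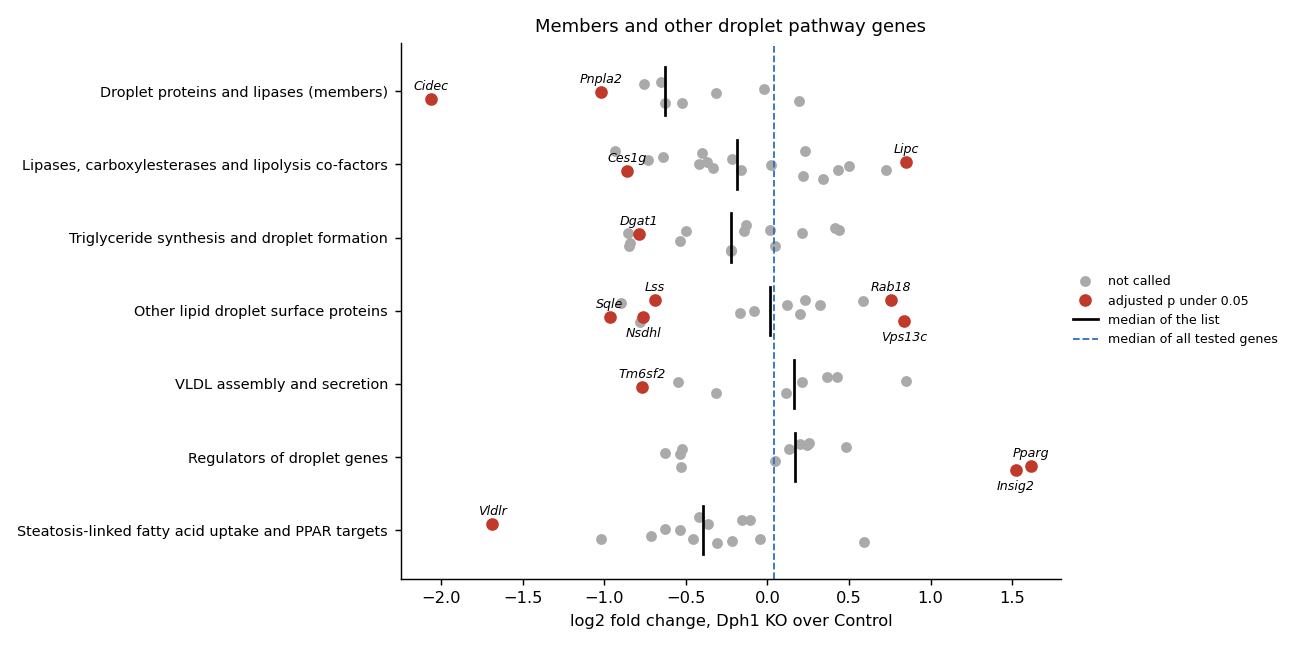
Log2 fold change of Dph1 KO over Control (horizontal axis) of the 9 tested droplet genes (top line) and of the tested genes of 6 other lists, with called genes in red and named, list medians as black bars and the median of all tested genes, 0.041, as a dashed line. Cidec at -2.06 and Vldlr at -1.69 are farthest to the left, and Pparg at 1.62 and Insig2 at 1.52 farthest to the right.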

How the data were processed

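Liver RNA of 4 libraries was sequenced from directional mRNA libraries made of Trizol RNA from frozen liver, per the labels' protocols. Reads were placed on GRCm38 (mm10), as named in the submitters' processing notes. The aligner, the counter and whether strand was used are not named in the sources used here. Per the file headers, the authors deposited whole-number read counts per gene, as gene, exon, junction and intron reads. The deposited TPM and RPKM values are scaled by exon length and library total, per the file headers. The deposited fractions of unique and intron reads were not used, and other deposited columns hold annotation such as exon length. Of all gene reads, 89.3% to 90.2% per library matched 1 place, as did at least 99.4% of the reads of each of the 9 tested genes.

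Total gene reads were compared with edgeR 4.0.16 in R 4.3.3 (filterByExpr, TMM, glmQLFit and glmQLFTest, genotype as the only term), with Benjamini-Hochberg adjustment over 13303 genes and a threshold of 0.05. The TMM factors were 1.16 and 1.04 in Dph1 KO and 0.945 and 0.884 in Control. The biological coefficient of variation was 18.5%, and at 19474596 to 21137358 reads per library it, and the 2 libraries per genotype, limit the precision. Log2 CPM correlated across genes at r = 0.980 between the Dph1 KO and 0.991 between the Control libraries. The test was checked on simulated counts with the same spread for all genes and changes set in genes of at least 5 CPM. It recovered 2 of 67 changes of 1.5-fold, 31 of 67 of 2-fold and 66 of 66 of 4-fold. Of 13113 unchanged genes it called 5. Most changes of 1.5-fold would thus not be called, and a gene that was not called may still differ. Alternatives were DESeq2 1.42.0, limma 3.58.1 (voom, and limma-trend on log2(TPM + 1) with a pseudocount of 1), other scalings, filters and read classes, an offset of a smooth trend (mgcv 1.9.3, basis size 6) on GC content and exon length, and each library left out. Likeness to Cidec used genes with a mean of at least 5 CPM and a pseudocount of 0.5 CPM. Tables were made with Python 3.11.15, pandas 2.3.3 and SciPy 1.17.1. Promoter sequences are from RefSeq (GRCm38.p6), with windows for 9 of the 10 genes used here.

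The 10 genes, the lists and the tests were chosen with earlier results of these data known. Named genes are the 10 genes, Dph1, Plin1, Adipoq, Abhd5, up to 3 called genes of each other list by lowest p, and the 3 genes most like Cidec. Of 84 list entries, 83 were matched to the tables and 81 tested. Cfd, Fabp4, Lipe, Lep and Ucp1 are named as fat cell markers after their values were seen.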

Additional observations from a re-analysis of the deposited data

How the results depend on the processing

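No paired analysis was possible because the replicate numbers follow accession order and pair no libraries. Of the 10 genes, 2 were called by edgeR in the setting reported. This count was 1 with a filter at a mean of 1 CPM, 1 with limma-voom, 1 with the GC and length offset, and 0 with limma-trend on log2(TPM + 1) (0 higher and 1 lower at an unadjusted p under 0.05), and it ranged from 1 to 5 with a library left out. In each of these settings that made a call, Cidec was called, and limma-trend gave it -1.57 (adjusted p = 0.178). Over all genes 1640 of 13303 were called, 646 higher and 994 lower in Dph1 KO. As background for the counts of the 10 genes and of the other lists, 1309 of 12126 genes were called with the 1 CPM filter. It was 1436 of 13303 with limma-voom, 1268 of 12535 with the GC and length offset and 2005 of 13303 with DESeq2. With no scaling beyond the library total 3422 were called (2633 higher, 789 lower), with upper quartile scaling 1072 were higher and 968 lower, with limma-trend 3 were called, and with a library left out the count ranged from 528 to 5405. In such fits the lone library takes its spread from the other genotype's pair. The other droplet lists had 12 called genes, 20 with DESeq2, 0 with limma-trend (12 higher and 4 lower at an unadjusted p under 0.05) and 3 to 39 with a library left out. The share of all genes at an unadjusted p under 0.05 was not counted for limma-trend. Its unadjusted counts for the 10 genes and for these lists thus have no background, and no direction is read from them. With no scaling, 14 of 17 calls in these lists were higher in Dph1 KO, beside 2633 of 3422 over all genes. With TMM it was 5 of 12, beside 646 of 1640 over all genes. Dph1 was at -1.20 with limma-trend (adjusted p = 0.192). Signs turned for Plin3 (0.24 with no scaling, 0.053 with upper quartile scaling, 0.31 with limma-trend, 0.082 with the GC and length offset, and -0.14 to 0.10 with a library left out), for Plin4 (-1.51 to 0.088 with a library left out), for Plin5 (0.048 with limma-trend, 0.29 with the offset) and for Pnpla3 (-0.051 to 0.45 with a library left out). None of these 4 genes was called in the setting reported. Other causes of these shifts were not tested.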

Other observations

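Intron reads of the droplet genes, which come in part from unspliced RNA, were few, and for some genes they differed between replicates. Plin2 had 295 and 77 intron reads in Dph1 KO and 88 and 191 in Control, so the genotypes overlapped and the replicates of each stood apart. Plin3 had 78 and 57 intron reads in Dph1 KO and 36 and 17 in Control, higher in both Dph1 KO libraries. Scaled as CPM, its intron reads were at 203.6% and its exon reads at 95.0% of Control. Pnpla2 had 29 and 32 intron reads in Dph1 KO and 26 and 30 in Control. On the CPM scale its intron reads were at 87.4% and its exon reads at 49.0% of Control. Cideb had 55 and 33 intron reads in Dph1 KO and 28 and 25 in Control. Its intron reads were at 131.8% and its exon reads at 64.4% of Control in CPM. For G0s2 the ratios were close, with intron reads at 60.9% and exon reads at 59.0% of Control, as for Plin5 with 88.3% and 80.1%. Intron reads were at 36.5% and exon reads at 23.5% of Control for Cidec, and at 104.0% and 63.4% for Plin2. The values were 97.4% and 65.2% for Plin4 and 146.1% and 110.6% for Pnpla3. The intron percentage was thus above the exon percentage in each of the tested droplet genes. How intron and exon reads compare over all genes was not counted, so no trait of single genes is read from these values. They are given with no test.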
